A study of Rattus norvegicus with 180 samples.

Results

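The microRNAs miR-199a-3p, miR-199a-5p and miR-214 were followed through the organs of normal male rats. They were chosen by name, as the array rows rno-miR-199a-3p, rno-miR-199a-5p and rno-miR-214, and are 3 of the 717 miRNAs on the array. The animals were 10-week-old Sprague-Dawley rats, anaesthetised with ether for collection and given no test compound. Rats 4, 5 and 6 were perfused with saline and gave 55 organs each. Rats 1, 2 and 3 were not perfused and gave liver, kidney, lung, heart atrium and heart interventricular septum (15 of the 180 arrays). Each organ is thus read on 3 arrays, labelled as 3 rats. For 8 organs (medulla oblongata, Pituitary gland, the 3 levels of the spinal cord and the 3 limb muscles) the array titled rat 5 carries rat 6 in its source name, and the title is followed here, as the sample list of the study also gives rat 5. The intestines were sampled as scraped mucosa, and every other organ is a mixture of its cell types.

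A miRNA guides a silencing complex to messenger RNAs whose sites pair with its seed, the bases near its 5′ end, and lowers the output of those messages. The arms of a miRNA hairpin, named 5p and 3p, are cut from the same precursor. miR-199a and miR-214 are known from connective tissue: their shared precursor transcript is made on the strand opposite to a dynamin 3 intron, under the transcription factor Twist1 in developing mesenchyme, and both are abundant in cultured fibroblasts, smooth muscle cells and chondrocytes. They are known to rise in fibrosis of several organs, which is why they are used as readers of fibroblast and stromal content.

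The mature sequences of the 3 members are shown because the seeds tell them apart and show which of them could pair with like sites. They come from RefSeq on the GRCr8 assembly, 5′ to 3′, with the seed (bases 2 to 8) in capitals, and the other strand of the miR-214 hairpin, which the array also measured, is added.
rno-miR-199a-5p: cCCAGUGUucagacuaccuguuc
rno-miR-199a-3p: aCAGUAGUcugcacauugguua
rno-miR-214: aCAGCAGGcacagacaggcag
rno-miR-214*: aGAGUUGUcaugugucu

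All 4 names were matched in RefSeq, where the last 2 are called miR-214-3p and miR-214-5p. None of these seeds occurs in another of the 724 mature rat miRNAs of the table. The seeds of miR-199a-3p and miR-214 have 5 of 7 bases in common and differ at bases 5 and 8, counted from the 5′ end. On GRCr8 the Mir199a2 hairpin lies on the plus strand at chr13:77116225-77116334 and the Mir214 hairpin at chr13:77121645-77121752, with 5310 bases between them. Both lie within the span of Dnm3, the dynamin 3 gene (chr13:76892381-77371346). A further hairpin gene, Mir3120 (chr13:77121647-77121763), overlaps Mir214. The array rows of rno-miR-214* and rno-miR-3120 were above background on 0 of 180 arrays, with highest scaled signals of 20.97 and 2.55, so of this locus only the 3 members can be followed.

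Values are scaled signals in arbitrary units. A miRNA counted as detected, or above background, on an array where over 50% of its spots (for a member, of the spots of at least 1 of its 2 probes) were well above local background. The arrays detected 86 to 244 miRNAs (median 161.5). No miRNA spot was saturated. Each member has 2 probes of 10 spots, which correlated across the 180 arrays with r = 0.9994 for miR-199a-3p, 0.912 for miR-199a-5p and 0.996 for miR-214. Differences in probe binding keep the level of a member from being set against that of another, so only the organs are compared. Signals below 10.8 were set to that floor before log2 values were taken, and differences against such organs are understated. The optic nerve array of rat 4 stood apart from the other optic nerve arrays, and the result that rests on it is given with and without it.

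Trachea, skin and musculus soleus had the 3 highest means for each of the 3 members, and most brain regions were among the lowest organs. miR-199a-3p was highest in trachea, at 3270, 3207 and 2583 in rats 4, 5 and 6 (mean 3020). Skin came next, at 3054, 2567 and 3175, and its rats overlapped those of trachea. Musculus soleus (2814, 1597 and 2318) also overlapped trachea, while vein (2428, 1890 and 1781) lay below all 3 trachea values. Bladder (mean 1603), ischial nerve (1593), aorta (1433), gastrocnemial muscle (1324), white adipose tissue (1322) and eyeball (1270) completed the 10 highest organs. The median organ mean was 592, in parotid gland. In the bulk RNA of an organ, fewer cells of a type and less RNA per cell cannot be told apart.

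miR-199a-3p was lowest in hippocampus, at 24.9, 18.9 and 16.5. Cerebellum, at 21.4, 32.4 and 16.2, overlapped hippocampus. Cerebral cortex (25.3, 31.2 and 70.8) and medulla oblongata (41.9, 57.9 and 38.0) lay above both in the mean, and cortex varied most among these brain regions. The only organs outside brain and spinal cord with a mean under 100 were rectum, at 79.4, 94.9 and 93.0, and Pituitary gland, at 94.5, 102 and 95.3. Even in hippocampus miR-199a-3p was above background on 3 of 3 arrays, and it was above background on every array of the perfused rats. Trachea exceeded hippocampus 152-fold.

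miR-199a-5p, the other arm of the same hairpin, was highest in skin, at 844, 694 and 897. Trachea followed at 720, 702 and 495, musculus soleus at 733, 393 and 603, and aorta at 658, 535 and 430. Of these, trachea and musculus soleus overlapped skin and aorta did not. Vein (mean 423), bladder (335), gastrocnemial muscle (284) and ischial nerve (266) came next, and bone marrow was ninth at 316, 191 and 235. Bone marrow was only the thirty-eighth organ for miR-199a-3p.

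At its low end miR-199a-5p was above background in all 3 rats of 50 organs and on 156 arrays of perfused rats. In hippocampus it was above background on 0 of 3 arrays, and in cerebellum, cerebral cortex and medulla oblongata on 2 of 3. Skin exceeded hippocampus at least 74.1-fold, where the bound takes for each hippocampus array the floor of 10.8 or, if higher, the lowest signal detected on that array. In pancreas it was above background on 0 of 3 arrays although its scaled signals read 60.9, 103 and 80.2. The pancreas arrays had the lowest raw signals, with a 75th percentile down to 68.0 before scaling against a median of 1854 over all arrays, so these values are multiplied up and are bounds only.

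miR-214 was highest in skin, at 845, 672 and 714. Musculus soleus followed at 650, 300 and 822 and was the only organ to overlap skin. Trachea (553, 599 and 535), aorta (560, 561 and 484) and vein (508, 433 and 434) formed the next group, and vein lay above ischial nerve (271, 295 and 291) in every rat. Bladder (mean 285), white adipose tissue (260), gastrocnemial muscle (254) and interseptum (248) closed the 10 highest.

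miR-214 was above background in all 3 rats of 49 organs, on 0 of 3 arrays in hippocampus and on 1 of 3 in pancreas. By the same bound skin exceeded hippocampus at least 68.0-fold for miR-214. The median organ mean was 115 for miR-214 and 111 for miR-199a-5p, and for each of them 23 organs had a mean under 100.

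**Figure D1:**
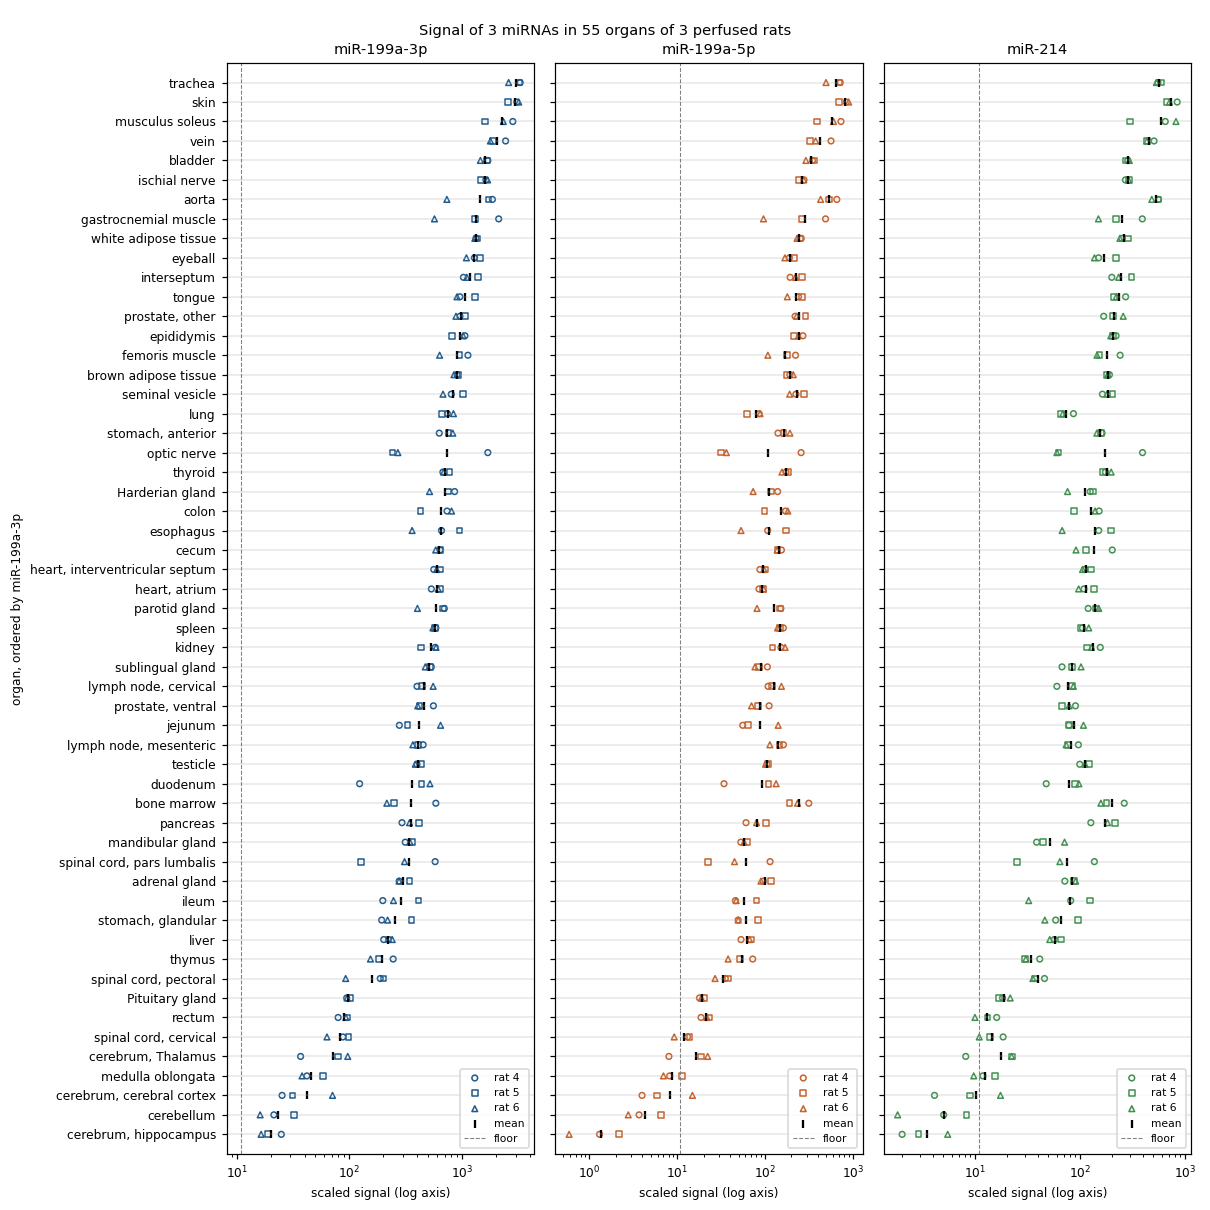
Scaled signal (log axis, arbitrary units) of miR-199a-3p, miR-199a-5p and miR-214 in 55 organs, ordered by the mean of miR-199a-3p. Open symbols are rats 4, 5 and 6, black ticks the mean of 3 rats and the dashed line the floor of 10.8. Trachea and skin stand at the top and hippocampus at the bottom in each panel, and optic nerve has 1 rat far to the right of the others.

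The ends of the 3 orders were nearly the same organs. Of the 10 highest organs 9 were shared by all 3 members: trachea, skin, musculus soleus, vein, bladder, ischial nerve, aorta, gastrocnemial muscle and white adipose tissue. The 10 lowest organs were the same for all 3 members, namely hippocampus, cerebellum, cerebral cortex, thalamus, medulla oblongata, the cervical and pectoral spinal cord, rectum, Pituitary gland and thymus.

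Neighbours in these orders were seldom separate. In 53 of 54 neighbouring pairs for miR-199a-3p, and in 52 of 54 for each of the others, the rats of the organs overlapped. The separate pairs were vein over bladder for miR-199a-3p, pectoral spinal cord over rectum and cerebellum over hippocampus for miR-199a-5p, and vein over ischial nerve and thymus over Pituitary gland for miR-214. All values of miR-199a-5p in cerebellum and hippocampus lie below the floor of 10.8, so that pair has no order. The median SD among the 3 rats of an organ was 0.25, 0.26 and 0.25 log2 for miR-199a-3p, miR-199a-5p and miR-214. Levels differed across the 55 organs for each member (limma, F = 36.1, 33.0 and 36.2, Benjamini-Hochberg adjusted p = 1.13e-50, 1.00e-48 and 1.01e-50), as they did for 96.2% of the 425 miRNAs tested.

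The study asked how miRNA profiles differ among normal organs, and 11 comparisons between organs or groups of organs were read from a limma fit over all perfused arrays. The groups were set by histology with earlier results of these data known. All 6 fibrous organs are among the 9 shared highest, as are aorta and vein, and 5 of the 11 parenchymal organs and 7 of the 8 central nervous organs are among the 10 shared lowest. The p-values of these 3 contrasts are thus no independent evidence of their direction. The same limit holds for the nerve, trachea, limb muscle, mucosa, fat and lymphoid contrasts, whose groups also hold shared highest or lowest organs. Each difference is a log2 difference of scaled signals with its standard error (SE) and an adjusted p over 425 miRNAs. Both measure the spread of arrays within organs and not that among the organs of a group. They hold for the organs named and do not carry over to a class of organs. Statements that rats, arrays or organ means did or did not overlap describe the printed values only. No share of all miRNAs that separate in the same way is set beside them, so they are not results particular to the members. Lists of marker miRNAs for other cell types are given beside them. Where a group holds the organs that a list is named for, the calls of that list follow from the grouping and are no independent evidence. The share of all 425 called is given in each contrast for the direction of the members. In the other direction, 18.1% were called lower in ischial nerve, 11.8% in trachea and 8.0% in limb muscle. Lower calls were 22.6% for anterior stomach, 30.1% for epididymis and 14.1% for white fat. Higher calls were 36.2% for brain and spinal cord and 33.2% for mucosa.

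The widest contrast set 6 fibrous or muscular-walled organs (skin, trachea, bladder, ischial nerve, aorta and vein) against 11 parenchymal organs (liver, parotid gland, pancreas, thymus, spleen, bone marrow, testicle, cerebral cortex, hippocampus, thalamus and cerebellum). For miR-199a-3p the fibrous organs had means from 1433 in aorta to 3020 in trachea, and the parenchymal ones from 20.1 in hippocampus to 592 in parotid gland. For miR-199a-5p the ranges were 266 in ischial nerve to 812 in skin, and 1.37 in hippocampus to 247 in bone marrow. For miR-214 they were 285 in bladder to 744 in skin, and 3.47 in hippocampus to 201 in bone marrow. Every parenchymal organ mean lay below every fibrous one for all 3 members, and single arrays overlapped for miR-199a-5p only.

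The difference of miR-199a-3p was 3.75 (SE 0.14, 13.5-fold, adjusted p = 1.11e-49), at 3.93, 3.71 and 3.62 in rats 4, 5 and 6. For miR-199a-5p it was 3.28 (SE 0.14, 9.73-fold, adjusted p = 3.46e-45) and for miR-214 3.24 (SE 0.13, 9.44-fold, adjusted p = 6.30e-47), higher in 3 of 3 rats for both. Of the 425 miRNAs, 14.6% were called higher in the fibrous organs, and the median of all was -0.51. The higher calls were 16.9% of all calls here and 37.0% to 39.3% under the other 3 scalings, where the median lay between -0.10 and -0.04 and the members between 4.10 and 5.16. Without the 4 brain regions the differences were 2.51, 2.17 and 2.15, and without pancreas 3.88, 3.36 and 3.42.

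Other stromal and smooth muscle miRNAs moved less than the members in this contrast. Of 18 tested, 14 were called higher and 3 lower, with a median of 0.82. miR-10b, a Hox cluster miRNA of the trunk and limbs, was highest at 3.10, and miR-29b, which represses collagens, was lowest at -1.70. The 10 neural, the 6 blood and immune and the 4 hepatocyte and acinar miRNAs were all called lower in the fibrous organs, as were 71.5% of all 425. The parenchymal group holds brain regions, lymphoid organs, liver and pancreas, so the calls of these lists follow from the grouping. Of 14 epithelial miRNAs 6 were called higher and 3 lower, from miR-192, a gut miRNA, at -1.81 to the squamous miR-205 (version 15.0 row) at 2.51. Of 7 striated muscle miRNAs 3 were called higher, led by miR-133b at 3.48. Neither endothelial miRNA, miR-126 (0.19) or miR-126* (-0.08), passed the test. The summed signal of the striated list ran from 86.9 to 18140 on fibrous arrays and from 12.3 to 12170 on parenchymal ones. The epithelial sum ran from 21.2 to 7769 against 28.6 to 19530, and the part of either list in the result was not tested.

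**Figure D2:**
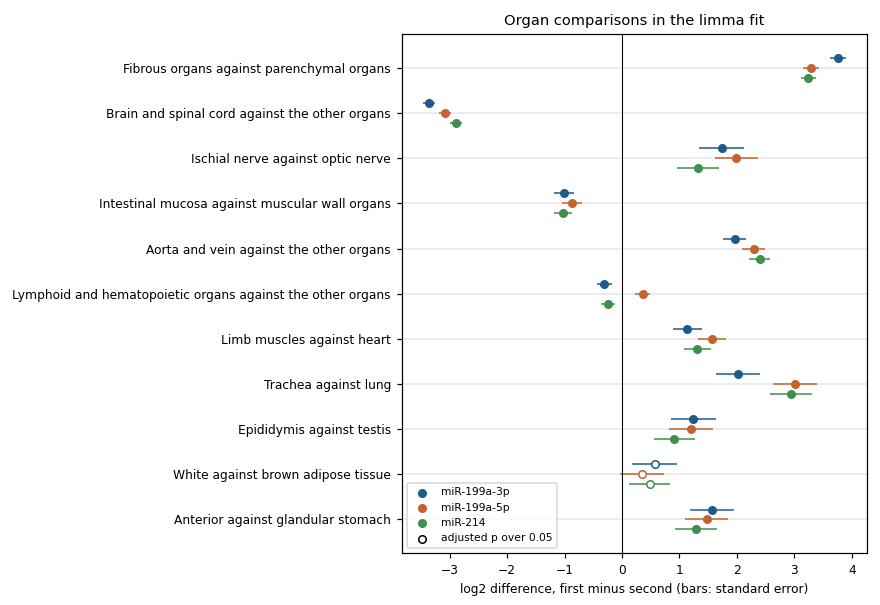
Log2 differences of scaled signal (first group minus second) for miR-199a-3p, miR-199a-5p and miR-214 in 11 comparisons of organs, with the standard error of the limma fit as bars. Filled points passed an adjusted p of 0.05, and the 3 open points are white against brown adipose tissue.

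Brain and spinal cord, 8 organs, were compared with the other 47. miR-199a-3p had means from 20.1 in hippocampus to 337 in the pars lumbalis of the spinal cord, against 89.1 in rectum to 3020 in trachea. miR-199a-5p ran from 1.37 to 60.6 against 19.1 in Pituitary gland to 812 in skin. miR-214 ran from 3.47 to 75.5 against 13.1 in rectum to 744 in skin. The means overlapped through the spinal cord and, for miR-214, also through thalamus (17.6).

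The means differed along the spinal cord. miR-199a-3p averaged 82.8 in the cervical, 160 in the pectoral and 337 in the lumbar cord. Its cervical values were 87.4, 97.9 and 63.2 and its pectoral values 188, 200 and 92.6, so these neighbours overlapped, and the lumbar values of 576, 127 and 308 overlapped the pectoral ones.

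The difference of the central nervous system from the other organs was -3.36 (SE 0.10, adjusted p = 1.85e-57) for miR-199a-3p, -3.08 (SE 0.10, adjusted p = 1.43e-54) for miR-199a-5p and -2.89 (SE 0.10, adjusted p = 2.68e-54) for miR-214. It was negative in all 3 rats for each. A lower call was made for 54.6% of the 425 miRNAs, so the direction is common here. The higher calls were 39.9% of all calls and 28.5% to 33.0% under the other scalings. All 10 neural miRNAs were called higher, led by miR-124 at 8.00. Of the 18 stromal miRNAs 10 were lower and 7 higher, between miR-152 (-2.35) and miR-125b-5p (1.93), and all 14 epithelial miRNAs were lower. The 7 striated muscle, 4 hepatocyte and acinar and 2 endothelial miRNAs were all lower too, and of 6 blood and immune ones 5 were lower and 1 higher.

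The lumbar cord was uneven among the rats. The array of rat 4 read 576, 114 and 137 for miR-199a-3p, miR-199a-5p and miR-214, that of rat 5 127, 22.6 and 25.0, and that of rat 6 308, 45.0 and 64.4. The summed signal of the 10 neural miRNAs went the other way, at 7032, 16760 and 12370 in rats 4, 5 and 6, and that of the 6 blood and immune miRNAs was 1759, 651 and 484. Their part in the spread of the members was not tested.

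The peripheral ischial nerve, whose fibres are wrapped in collagen-rich sheaths, was set against the optic nerve, a tract of the central nervous system. Ischial nerve was tight, with miR-199a-3p at 1623, 1474 and 1682. Optic nerve read 1689 in rat 4 but 241 and 269 in rats 5 and 6. For miR-199a-5p ischial nerve read 278, 242 and 276 and optic nerve 258, 31.7 and 36.4. For miR-214 the values were 271, 295 and 291 against 395, 62.3 and 60.3. The optic nerve array of rat 4 lay at or above the level of ischial nerve and the other 2 rats far below it.

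That array stood apart more than any other. It exceeded the other optic nerve rats by 2.73, 2.93 and 2.69 log2 for the 3 members. Its summed striated muscle signal was 4993, against 30.2 and 28.1 in rats 5 and 6 and 86.9 to 117 in ischial nerve. The heart and skeletal muscle miRNA miR-1 read 1989 against 4.98 and 4.53. miR-133b read 2798 against 10.9 and 13.1, and miR-206, a skeletal muscle miRNA, 127 against 6.87 and 3.55. The endothelial sum was 751 in rat 4 against 297 and 344 in rats 5 and 6. The blood and immune sum was 432 against 247 and 300, and the epithelial sum 89.9 against 52.3 and 30.3. The stromal sum was 18950 against 15850 and 16080. The neural sum was lower, at 4887 against 6891 and 6462, and the part of these signals in the result was not tested.

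Over all arrays the difference of ischial from optic nerve was 1.73 (SE 0.39, adjusted p = 1.04e-04) for miR-199a-3p, 1.99 (SE 0.38, adjusted p = 5.44e-06) for miR-199a-5p and 1.32 (SE 0.36, adjusted p = 0.00169) for miR-214. By rat, miR-199a-3p differed by -0.06, 2.62 and 2.65 in rats 4, 5 and 6, miR-199a-5p by 0.11, 2.94 and 2.93, and miR-214 by -0.54, 2.24 and 2.27. Without the rat 4 optic nerve array the differences were 2.64 (adjusted p = 5.88e-09), 2.96 (adjusted p = 2.25e-11) and 2.22 (adjusted p = 6.30e-08). Among 425 miRNAs 11.1% were called higher in ischial nerve, and the higher calls were 37.9% of all calls and 53.7% to 54.7% under the other scalings. The normexp background lowered miR-214 to 0.58, which did not pass, and the median of all 425 miRNAs to -1.18, against 0 in the main fit. The call was also lost without rat 5 for miR-199a-3p (1.29) and without rat 5 (0.86) or rat 6 (0.85) for miR-214. Of 18 stromal miRNAs 7 were higher and 2 lower, with miR-10b at 5.05, and of 10 neural ones 6 were lower and 1 higher, from miR-219-2-3p, an oligodendrocyte miRNA, at -5.93 to miR-138 at 1.60.

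Markers of other cell types were also higher in ischial nerve. Both endothelial miRNAs were called higher, miR-126 by 1.12 and miR-126* by 1.08, and their sum ran from 760 to 1057 against 297 to 751 in optic nerve. Of 6 blood and immune miRNAs 2 were higher and 0 lower, with the red cell miRNA miR-451 at 2.22, and their sum was 532 to 816 against 247 to 432. Of 14 epithelial miRNAs 2 were higher, led by miR-205 (version 15.0 row) at 2.12, and 1 lower, with sums of 97.7 to 145 against 30.3 to 89.9. None of 7 striated muscle miRNAs passed. The part of these lists in the difference of the members was not tested.

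**Figure D3:**
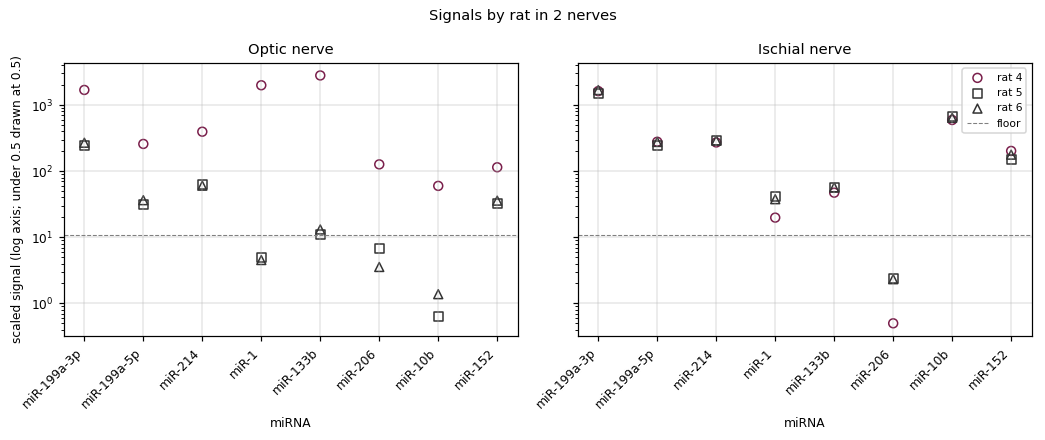
Scaled signal (log axis, arbitrary units) of the 3 members and 5 marker miRNAs in optic and ischial nerve of rats 4, 5 and 6, with the dashed floor of 10.8. Values under 0.5 are drawn at 0.5. In optic nerve rat 4 lies above the other rats for all 8 miRNAs, for example miR-1 at 1989 against 4.98 and 4.53, and in ischial nerve the rats lie close together for the members.

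The blood vessels, whose walls hold smooth muscle and adventitial fibroblasts, carried high levels of all 3 members. In aorta miR-199a-3p read 1855, 1712 and 732 and miR-214 560, 561 and 484, so rat 6 was far below the others for the former and not for the latter. Aorta and vein differed from the other 53 organs by 1.96 (SE 0.20, adjusted p = 2.67e-16) for miR-199a-3p, 2.29 (SE 0.19, adjusted p = 1.38e-20) for miR-199a-5p and 2.40 (SE 0.18, adjusted p = 2.40e-23) for miR-214, higher in 3 of 3 rats. Against organs outside brain and spinal cord the differences were 1.46, 1.84 and 1.97.

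In the vessels 8.94% of the 425 miRNAs were called higher, and the median of all was -0.28. The higher calls were 12.2% of all calls, and 35.9% to 44.0% under the other scalings, where the members lay between 2.46 and 3.85. Of 18 stromal miRNAs 13 were higher and 4 lower, and miR-145, the smooth muscle miRNA, led at 3.04. All 14 epithelial miRNAs were lower. The 10 neural and 4 hepatocyte and acinar miRNAs were lower too, as were 5 of 6 blood and immune and 5 of 7 striated muscle miRNAs. Of all 425 miRNAs 64.2% were called lower, so the direction is common here. Both endothelial miRNAs missed the test, with miR-126 at -0.01.

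Trachea, a cartilage-ringed tube, was compared with lung. miR-199a-3p read 3270, 3207 and 2583 in trachea against 739, 659 and 837 in lung. miR-199a-5p read 720, 702 and 495 against 85.9, 62.6 and 88.0, and miR-214 553, 599 and 535 against 86.7, 65.8 and 68.6. No rats overlapped. The differences were 2.02 (SE 0.39, adjusted p = 8.16e-06), 3.02 (SE 0.38, adjusted p = 2.29e-11) and 2.94 (SE 0.36, adjusted p = 6.94e-12), where 8.71% of 425 miRNAs were called higher in trachea. The higher calls were 42.5% of all calls and 20.1% to 41.3% under the other scalings, and miR-199a-3p fell to 1.30 under the lowest of them. The cartilage miRNA miR-140* led the stromal list at 5.39, with 8 of 18 called higher and 0 lower. Of 14 epithelial miRNAs 5 were higher and 0 lower, led by miR-205 (version 15.0 row) at 4.93, and their sum was 3832 to 5531 in trachea against 1990 to 2337 in lung. In the striated list miR-1 alone passed, at 2.85, with sums of 184 to 1728 against 44.5 to 101, and in the neural list miR-338 alone, at 1.18. The part of these lists in the result was not tested. Both endothelial miRNAs were lower, miR-126 at -3.02, as were 4 of 6 blood and immune miRNAs.

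The limb muscles (femoris muscle, gastrocnemial muscle and musculus soleus) were set against the heart. Musculus soleus, the slow postural muscle, had the highest means, at 2243 for miR-199a-3p, 576 for miR-199a-5p and 591 for miR-214. Gastrocnemial muscle varied widely, with miR-199a-3p at 2109, 1296 and 568 and miR-199a-5p at 490, 266 and 96.3. Femoris muscle read 1125, 950 and 631 for miR-199a-3p. Heart atrium (533, 636 and 613) and septum (560, 637 and 595) were close to each other and lower in the mean, and the gastrocnemial and femoris muscles of rat 6 overlapped them.

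The difference of limb muscle from heart was 1.13 (SE 0.25, adjusted p = 8.97e-05) for miR-199a-3p, 1.56 (SE 0.25, adjusted p = 3.47e-08) for miR-199a-5p and 1.31 (SE 0.23, adjusted p = 8.37e-07) for miR-214, higher in 3 of 3 rats. These values depend on the scaling: over all miRNAs they were 0.13, 0.56 and 0.31 and none passed, and in the authors' table miR-199a-3p was 0.44 and did not pass. Of 425 miRNAs 18.4% were called higher, which made up 69.6% of the calls here and 26.4% to 35.4% under the other scalings. Without musculus soleus the differences were 0.76, 1.05 and 0.84. Of the 18 stromal miRNAs 3 were higher, led by miR-10b at 5.67, and 5 lower. In the striated list miR-206 was higher by 9.15, and the heart miRNA miR-208 (version 15.0 row) was at -4.35. Of 6 blood and immune miRNAs 2 were higher in limb muscle, led by miR-451 at 1.52, of 10 neural ones miR-128 alone was higher (2.82), and both endothelial miRNAs were lower. The part of these lists in the result was not tested.

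Intestinal mucosa (duodenum, jejunum, ileum, cecum, colon and rectum) was compared with esophagus, anterior and glandular stomach and bladder. The latter are not listed as scraped and are called wall organs here, though no label says how much muscle they kept. Mucosa ranged from 89.1 in rectum to 656 in colon for miR-199a-3p, 21.3 to 151 for miR-199a-5p, and 13.1 in rectum to 136 in cecum for miR-214. The wall organs ran from 256 in glandular stomach to 1603 in bladder for miR-199a-3p, 60.9 to 335 for miR-199a-5p and 66.7 to 285 for miR-214. The ranges overlapped, and rectum was far below the other mucosae.

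Mucosa was at -1.01 (SE 0.18, adjusted p = 3.18e-07) for miR-199a-3p, -0.87 (SE 0.17, adjusted p = 6.09e-06) for miR-199a-5p and -1.03 (SE 0.16, adjusted p = 2.36e-08) for miR-214, lower in 3 of 3 rats. Without bladder miR-199a-5p was at -0.43 and no longer passed (adjusted p = 0.0569), with the others at -0.57 and -0.68. Without rectum the values were -0.64, -0.51 and -0.56. A lower call was made for 14.6% of 425 miRNAs. The higher calls were 69.5% of all calls and 41.2% to 42.9% under the other scalings, where the members were at -1.84 to -1.50.

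In the same contrast 12 of 14 epithelial miRNAs were higher in mucosa, up to 8.81 for miR-215 (version 15.0 row), an intestinal miRNA. The squamous miRNA miR-205 (version 15.0 row) was at -3.15. Of the 18 stromal miRNAs 11 were lower and 4 higher, from miR-99a at -3.93 to miR-21 at 1.87. The epithelial sum ran from 14520 to 227000 on mucosal arrays and from 2341 to 32640 on wall arrays, and its part in the result was not tested. Of 7 striated muscle miRNAs 4 were lower in mucosa, down to miR-1 at -3.93 (sums of 18.1 to 502 against 29.0 to 32090, not tested as a part of the result), as were 2 of 10 neural miRNAs and the endothelial miR-126 (-0.62). Of 6 blood and immune miRNAs 4 were higher and 1 lower.

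Anterior stomach, the squamous-lined forestomach, was set against glandular stomach. miR-199a-3p read 626, 755 and 826 against 193, 356 and 218. miR-199a-5p read 141, 162 and 192 against 49.5, 83.6 and 49.6, and miR-214 162, 160 and 145 against 58.7, 95.2 and 46.3. No rats overlapped for any member. The differences were 1.57 (SE 0.39, adjusted p = 3.82e-04), 1.47 (SE 0.38, adjusted p = 6.82e-04) and 1.29 (SE 0.36, adjusted p = 0.00177). Of 425 miRNAs 11.1% were called higher, which was 32.9% of the calls and 53.3% to 59.2% under the other scalings, where the members differed by 2.02 to 2.52, 2.26 to 2.42 and 2.02 to 2.24 and all passed. With the normexp background miR-199a-5p (0.26) and miR-214 (0.13) did not pass, and without rat 6 miR-214 (1.11, adjusted p = 0.0619) did not either. Under normexp the median of all 425 miRNAs was -1.47, against 0 in the main fit.

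In the same contrast 11 of 18 stromal miRNAs were higher in anterior stomach and 5 lower, from miR-29c at -1.73 to miR-145 at 5.56. Of 14 epithelial miRNAs 10 were lower and 3 higher, from miR-192 at -7.70 to the skin miRNA miR-203 at 4.84. Of 7 striated muscle miRNAs 2 were higher, led by miR-133b at 5.76, and their sum was 968 to 1153 against 29.0 to 42.5. The endothelial miR-126 was higher by 1.00, and the endothelial sum was 375 to 404 against 156 to 278. Of 10 neural miRNAs 1 was higher and 2 lower, and of 6 blood and immune ones 1 was higher. The part of these lists in the result was not tested.

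Epididymis, a coiled duct with a muscular coat, was set against testicle. miR-199a-3p read 1058, 812 and 1020 against 397, 436 and 384, miR-199a-5p 270, 216 and 241 against 106, 108 and 102, and miR-214 221, 206 and 197 against 99.6, 122 and 112. The rats did not overlap. The differences were 1.24 (SE 0.39, adjusted p = 0.00480), 1.20 (SE 0.38, adjusted p = 0.00528) and 0.91 (SE 0.36, adjusted p = 0.0295). A higher call was made for 14.4% of 425 miRNAs, which was 32.3% of the calls and 41.6% to 54.2% under the other scalings, where the members differed by 1.40 to 2.42, 1.43 to 1.84 and 1.07 to 1.54 and all passed. Of 18 stromal miRNAs 9 were higher and 3 lower, and of 14 epithelial miRNAs 9 were higher and 2 lower, with sums of 16610 to 20500 against 223 to 309. Of 6 blood and immune miRNAs 3 were higher and 1 lower, and of 10 neural ones 2 were higher and 4 lower. The part of these lists in the result was not tested. With the normexp background miR-199a-5p (0.21) and miR-214 (0.025) did not pass, and the median of all 425 miRNAs was -0.99, against 0 in the main fit. The call of miR-214 was also lost without any 1 of the rats, with adjusted p of 0.0976, 0.0902 and 0.100 without rats 4, 5 and 6.

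White and brown adipose tissue are the storing and the heat-making fat. miR-199a-3p read 1324, 1346 and 1296 in white and 902, 930 and 846 in brown fat. miR-199a-5p read 259, 249 and 232 against 192, 180 and 210, and miR-214 251, 289 and 241 against 191, 182 and 184. White exceeded brown fat in every rat and the rats did not overlap, which describes these arrays and is no test. The fit, whose spread comes from all 55 organs, called no member. The differences were 0.57 (SE 0.39, adjusted p = 0.481), 0.35 (SE 0.38, adjusted p = 0.997) and 0.48 (SE 0.36, adjusted p = 0.568). Of 425 miRNAs 4.94% were called higher, which was 25.9% of the calls and 54.3% to 60.6% under the other scalings. Of 18 stromal miRNAs 6 were higher and 2 lower in white fat, and 4 of 6 blood and immune miRNAs, 2 of 14 epithelial ones, 1 of 7 striated muscle ones and the endothelial miR-126 (-0.80) were lower. Under the other 3 scalings the differences were 0.93 to 1.04, 0.64 to 0.82 and 0.74 to 0.95, of which miR-199a-3p in the authors' table (1.04, adjusted p = 0.0496) alone passed.

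The lymphoid and hematopoietic organs were the only one of the 11 comparisons in which the members differed in sign. miR-199a-3p ranged from 194 in thymus to 571 in spleen, with bone marrow at 584, 250 and 215. miR-199a-5p ranged from 54.3 in thymus to 247 in bone marrow. miR-214 ranged from 34.0 in thymus to 201 in bone marrow (264, 179 and 158). Bone marrow was thus the highest of these 5 organs for miR-199a-5p and miR-214 but not for miR-199a-3p.

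Against the other 50 organs the difference was -0.31 (SE 0.13, adjusted p = 0.0229) for miR-199a-3p, 0.36 (SE 0.13, adjusted p = 0.00691) for miR-199a-5p and -0.25 (SE 0.12, adjusted p = 0.0482) for miR-214, each with the same sign in 3 of 3 rats. Of 425 miRNAs 26.8% were called higher and 55.5% lower. These values depend on the organs compared. Against organs outside brain and spinal cord they were -0.86 (adjusted p = 2.48e-09), -0.14 (adjusted p = 0.335) and -0.72 (adjusted p = 4.57e-08), so miR-199a-3p and miR-214 were further below and still passed. Without bone marrow they were -0.26 (adjusted p = 0.0906), 0.13 (adjusted p = 0.408) and -0.55 (adjusted p = 9.87e-05), and miR-214 alone passed. Without rat 5 or rat 6 the calls of miR-199a-3p (-0.24 and -0.28) and miR-214 (-0.22 and -0.26) were lost. Processing mattered too. The miR-199a-5p value fell to 0.086 with a floor 4 times as high and to 0.066 with the normexp background, and did not pass. The call of miR-199a-3p was lost with scaling over all miRNAs (-0.21) and in the authors' table (-0.25). That of miR-214 was lost with a floor 4 times as low (-0.18) and under further settings listed at the end. All 6 blood and immune miRNAs were called higher in the lymphoid organs, up to 7.05 for miR-142-3p, and their sum ran from 19590 to 62480 there against 107 to 5536 elsewhere. Both endothelial miRNAs were higher too, miR-126 by 0.56 and miR-126* by 0.53. All 14 epithelial, 7 striated muscle and 4 hepatocyte and acinar miRNAs were lower. Of 10 neural miRNAs 9 were lower and miR-128 was higher (1.49), and of 18 stromal ones 10 were lower and 5 higher, from miR-99a at -1.49 to miR-140* at 1.56. The part of these lists in the result was not tested.

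Whether the members keep a fixed ratio was tested on the difference of log2 signals of a pair on the same array, in organs where both were above background on all 3 arrays. Only its change between organs is read, as the distance from the median organ. For miR-199a-3p minus miR-199a-5p, the arms of a single hairpin, 43 of 50 organs lay within 0.5 of the median. Bone marrow was lowest, at -1.32, -1.82 and -2.33 in rats 4, 5 and 6, and lung highest, at 0.90, 1.19 and 1.05. Aorta (-0.71, -0.53 and -1.44) was next to bone marrow. So bone marrow held relatively less of the 3p arm, and lung relatively more, than the median organ in every rat.

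The SD of organ means was 0.45 against 0.16 among rats for this pair. Organ explained more of the spread than permuted organ labels within rats (F = 24.96, permutation p = 1e-05, the smallest that 100000 permutations can give). For miR-199a-3p minus miR-214 the extremes were the same organs, bone marrow at -1.12, -1.79 and -1.82 and lung at 0.83, 1.06 and 1.34 (F = 4.59, 49 organs, permutation p = 1e-05, the smallest possible). Under 10 ways of computing the signals, bone marrow stayed lowest for both pairs. Its distance ran from -2.06 to -1.36 for the arms and from -1.59 to -1.31 for the other pair. Lung lay between 0.80 and 1.27 for the arms, at rank 48 to 50 of 50, and between 0.89 and 1.25 for the other pair, at rank 46 to 49 of 49.

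miR-199a-5p minus miR-214 varied less. The SD of organ means was 0.29 against 0.31 among rats, and 0 organs were more than 1 from the median. The highest organ was mesenteric lymph node, at 0.69, 0.86 and 0.56, and the lowest, farther from the median, was optic nerve, at -0.67, -1.03 and -0.79 in rats 4, 5 and 6. The F was 2.57 (49 organs, permutation p = 5e-05), and without rat 5 it fell to 1.20 and did not pass. Organs shared array slides within a rat, and the permutation does not separate slide from organ. In rat 4 every organ on the slide of tongue to cecum lay below the median. In rat 6 every organ on the slide of anterior stomach to rectum lay above it. Ileum, for example, was at -0.88 in rat 4 and 0.48 in rat 6. The 5p probes correlated less well with each other than those of the other members, and with either probe of each member alone all 3 tests passed.

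**Figure D4:**
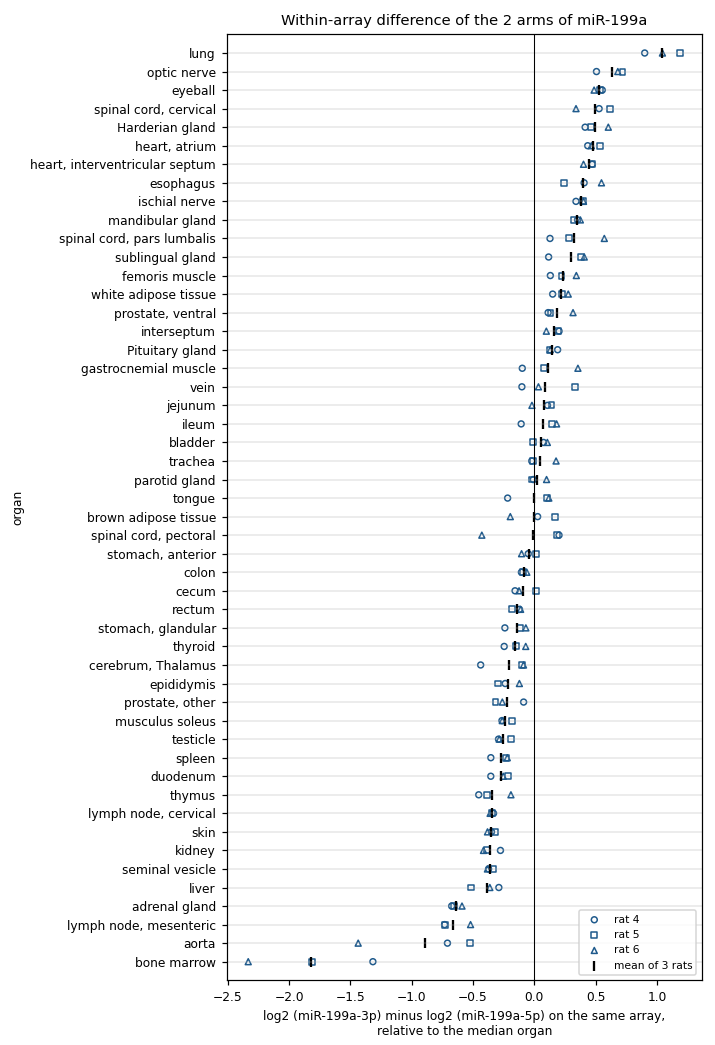
Log2 of miR-199a-3p minus log2 of miR-199a-5p on the same array, relative to the median organ, in the 50 organs where both were above background in all 3 rats. Open symbols are rats 4, 5 and 6 and black ticks their mean. Bone marrow lies lowest, between -2.33 and -1.32, and lung highest, between 0.90 and 1.19.

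The profiles of the members over 55 organ means were closer to each other than to any other miRNA. Pearson's r of log2 organ means was 0.955 for the arms of miR-199a, 0.957 for miR-199a-3p with miR-214 and 0.979 for miR-199a-5p with miR-214. Over the 47 organs outside brain and spinal cord these were 0.920, 0.928 and 0.959. The points share arrays, scaling and floor, so the values are descriptions. Among the other miRNAs detected on at least 50% of the perfused arrays, the 2 other members were the only ones above 0.8 for each member, and the median r was close to 0 (-0.01 for miR-199a-3p).

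The next most alike were miR-23a (r = 0.730), miR-152 (0.678) and miR-27a (0.653) for miR-199a-3p. For miR-199a-5p they were miR-143 (0.628), miR-27a (0.623) and miR-152 (0.620), and for miR-214 miR-23a (0.645), miR-152 (0.637) and miR-365 (0.626). miR-23a and miR-27a come from a common transcript, and miR-143 is a smooth muscle miRNA. The lowest were miR-185, miR-29b and miR-326 for all 3 members, at -0.707, -0.706 and -0.689 for miR-199a-3p. miR-29b, highest in thalamus, reached -0.762 with miR-214.

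The lists differed in likeness to the members. The 16 stromal miRNAs detected widely enough had a median r of 0.20, 0.24 and 0.20 with miR-199a-3p, miR-199a-5p and miR-214, and ran from miR-29b to miR-152 or miR-143. The 2 striated muscle miRNAs had medians of 0.48, 0.41 and 0.47, the 2 endothelial ones 0.34, 0.31 and 0.32, and the 2 neural ones -0.53, -0.53 and -0.50. The 4 blood and immune miRNAs had medians of 0.19, 0.26 and 0.20, close to those of the stromal list, and the 8 epithelial ones 0.14, 0.088 and 0.057. The stromal list thus covers miRNAs that ran with the members across organs and miRNAs that ran against them.

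Rats of the same organ also deviated together. Over all perfused arrays, deviations from the organ mean correlated with r = 0.922 between the arms of miR-199a, 0.764 between miR-199a-3p and miR-214, and 0.788 between miR-199a-5p and miR-214. Over 141 other miRNAs the median was 0.09, 0.08 and 0.03, and the highest was miR-152 for each member, at 0.794, 0.790 and 0.657. The spread between rats within an organ was in good part shared by the 3 members.

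**Figure D5:**
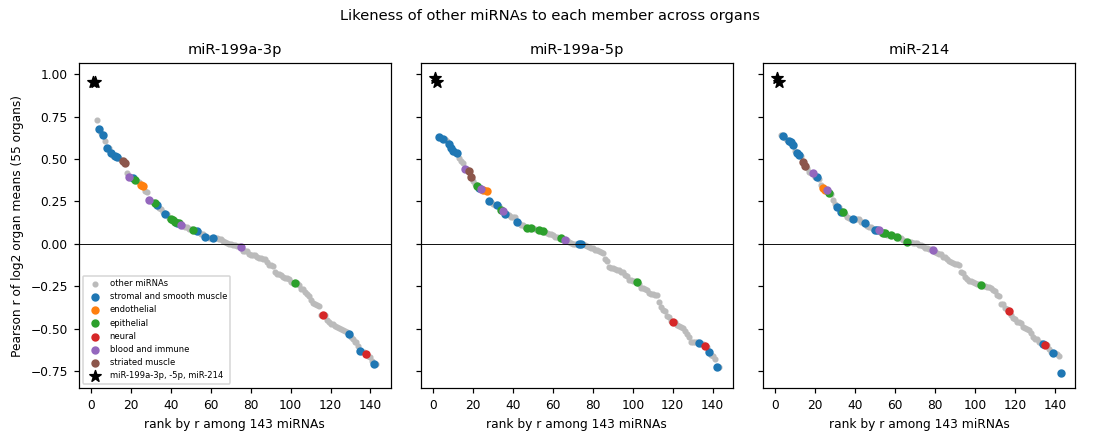
Pearson's r of log2 organ means (55 organs) of each member with the other miRNAs detected on at least 50% of the perfused arrays, by rank, with marker lists in colour. The 2 other members (stars) lie above 0.95 and the next miRNA at 0.730 or lower.

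Of the 5 organs sampled with and without saline perfusion, 4 had less of the red cell miRNA miR-451 on every perfused array. In kidney it read 132, 163 and 227 in rats 1, 2 and 3 without perfusion and 15.4, 9.87 and 15.0 in rats 4, 5 and 6 with it (difference -3.64, adjusted p = 0.107). The differences were -1.48 in liver, -3.30 in heart atrium and -3.38 in septum, where the rats did not overlap either. In lung it read 405, 559 and 558 against 17.5, 422 and 1080, so the perfused lungs of rats 5 and 6 still held it. With limma, 0 of the 6 blood and immune miRNAs passed in any of the 5 organs. At an unadjusted p under 0.05 miR-451 was lower in kidney, atrium and septum, miR-144 in liver and miR-150 in lung. Of 226 miRNAs tested, 20, 8, 12, 4 and 3 had such a p in liver, kidney, lung, atrium and septum. In kidney miR-144 read 4.73, 6.06 and 7.85 against 1.17, -0.50 and 0.92, all under the floor of 10.8, which sets its difference to 0.

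The members were read in the same arrays. In lung miR-199a-5p read 89.2, 94.7 and 134 in rats 1, 2 and 3 without perfusion and 85.9, 62.6 and 88.0 with it, and these rats did not overlap. In all other combinations of member and organ the rats overlapped. miR-214 in lung read 84.9, 96.5 and 137 against 86.7, 65.8 and 68.6. The differences, perfused minus not, were -0.42 (SE 0.15, adjusted p = 0.365) and -0.51 (SE 0.18, adjusted p = 0.296), and did not pass. miR-199a-3p in lung was 681, 793 and 869 against 739, 659 and 837, a difference of -0.07.

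In liver, kidney, heart atrium and septum no member passed either, with differences from -0.19 to 0.19. In liver miR-199a-3p read 173, 219 and 221 without and 201, 222 and 240 with perfusion, and in kidney 473, 464 and 448 against 578, 429 and 586. Of 226 miRNAs tested, 1.33% were called in liver, 0.442% in kidney, and 0% in lung, heart atrium and septum, where 12, 4 and 3 miRNAs had an unadjusted p under 0.05 in limma. In lung miR-199a-5p and miR-214 were among the 12. The perfusion effect differed between organs for 0.442% and for none of the members (adjusted p of 1 for each). Over the 5 organs, the mean of each rat differed by 0.06, -0.09 and -0.18 for miR-199a-3p, miR-199a-5p and miR-214 (exact permutation test of 3 against 3 rats, two-sided, p = 0.6, 0.2 and 0.3, with 0.1 the smallest possible). All 15 arrays without perfusion were scanned on day 1, and the perfused ones were spread over 3 days, so scan day and perfusion are partly tied.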

How the data were processed

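RNA of 55 organs from 3 perfused rats and of 5 organs from 3 rats without perfusion was hybridised by the authors to 180 one-colour (Cy3) Agilent rat miRNA arrays, 1 per organ and rat. The deposited scanner files hold spot intensity from Agilent Feature Extraction 10.7.3 (submitters' processing notes), already background-subtracted by that software, and a deposited table holds intensity values scaled by the authors to the 75th percentile of each array, used as an alternative only. Set against the scanner signals, its values were linear and uncentred. The table lacks 2 of the 717 miRNAs, and its 21 control probes were left out.

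Outlier spots (1.632% to 6.416% per array) were dropped, the 10 spots of a probe and then the 2 probes of a miRNA averaged, and arrays scaled to equal 75th percentiles over the 37 miRNAs detected on all arrays. The mean target was 2118, and 10.8, the median over arrays of the lowest detected signal, was the floor. limma 3.58.1 (R 4.3.3, lmFit and eBayes with trend) fitted 1 term per organ to log2 signals, keeping the 425 miRNAs that 1 or more perfused arrays detected, with Benjamini-Hochberg adjustment and a threshold of 0.05. Perfusion was fitted on 30 arrays of the 5 organs. Fits were tested on simulated data with planted changes. Python 3.11.15 with scipy 1.17.1 gave the permutation tests. With 3 rats per organ, the number of arrays limits the precision.

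Rats carry the same number in all organs, so organs are paired by animal. Deviations from organ means correlated on average 0.03, 0.06 and 0.05 between arrays of the same rat (rats 4, 5 and 6) and -0.02 between arrays of different rats. On 8 arrays title and source name give different rat numbers, and the title was used. Slide (23) and scan day (3) follow the rats in large part, so rat and day cannot be told apart fully.

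The members, lists and organ groups were chosen with earlier results of these data known. Named miRNAs are the members, the other strands of their hairpins, the 5 most and 3 least alike by Pearson's r, and the ends of each list. The blood markers of the perfusion arrays were added and named after their values were seen. miR-1, miR-133b and miR-206 in optic nerve were named after their values were seen. Of the lists (stromal and smooth muscle 19 rows on the array, endothelial 2, epithelial 14, neural 10, blood and immune 6, striated muscle 7, hepatocyte and acinar 4), the last had 4 of 4 called lower in the fibrous, central nervous system, vessel and lymphoid comparisons and none called in the other 7. Liver and pancreas stood in the second group of the fibrous, central nervous system, vessel and lymphoid comparisons only. Alternatives were the floor, scaling, background, probe, filter, block and left-out rats or organs.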

Additional observations from a re-analysis of the deposited data

How the results depend on the processing

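Each of 63 results was recomputed under up to 34 settings, and 1158 of 1233 values kept their direction and their side of the threshold. The settings that drop organs or the rat 4 optic nerve array were chosen after seeing the data. Fibrous against parenchymal organs, the central nervous system, aorta and vein, trachea against lung and the spread over 55 organs kept every call in every alternative run. With rat as replicate block (paired by animal) miR-199a-3p differed by 3.75 between fibrous and parenchymal organs, and the block changed no call of a member. The alternative that adds the arrays without perfusion was not run for the differences between members. Where a call was lost the cause was not tested. The number of rats per organ (3) limits the precision, and where a member was not above background its level is a bound.

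With the normexp background, computed from median spot and background signals, ischial against optic nerve fell to 0.58 for miR-214, epididymis against testicle to 0.21 for miR-199a-5p and 0.025 for miR-214, and anterior against glandular stomach to 0.26 and 0.13. Limb muscle against heart was 0.13, 0.56 and 0.31 for miR-199a-3p, miR-199a-5p and miR-214 with scaling over all miRNAs, and 0.44 for miR-199a-3p in the authors' table. White against brown fat passed for miR-199a-3p in the authors' table (1.04). Mucosa without bladder was -0.43 for miR-199a-5p.

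The lymphoid comparison was the least stable. miR-199a-3p was -0.21 with scaling over all miRNAs, -0.25 in the authors' table and -0.26 without bone marrow, and did not pass. miR-199a-5p was 0.086 with a floor 4 times as high, 0.066 with normexp, 0.13 without bone marrow and reversed to -0.14 outside brain and spinal cord. miR-214 did not pass with a floor 4 times as low (-0.18), normexp (-0.24), the median of spots (-0.24), the authors' table (-0.24), probe 1 alone (-0.25), all miRNAs of the design (-0.25) or slide as a random block (-0.23).

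The perfusion differences, none of them called, changed sign as follows. With normexp, liver was 0.072 for miR-199a-5p and 0.037 for miR-214, and kidney -0.44 and -0.53. With probe 2 alone, miR-199a-5p was 0.039 in liver, 0.11 in heart atrium and 0.067 over the 5 organs. For miR-199a-3p, lung was 0.10 with scaling over all miRNAs and 0.0031 in the authors' table, and heart atrium 0.023 in that table and 0.018 with probe 1 alone. With quantile normalization miR-199a-5p was 0.059 in heart atrium and 0.000812 over the 5 organs, which the authors' table gave as 0.000801. With scan day as a term, septum was -0.0062 for miR-199a-3p and -0.023 for miR-199a-5p, and the authors' table gave 0.017 for miR-214.

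The correlation of organ means moved for the arms of miR-199a to 0.894 (floor 4 times as high) and 0.903 (normexp), for miR-199a-3p with miR-214 to 0.897 and 0.896, and for miR-199a-5p with miR-214 to 0.968, 0.989, 0.987 (scaling over all miRNAs) and 0.987 (authors' table).

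Leaving out each rat in turn changed calls or signs in these ranges. Ischial against optic nerve ran from 1.28 to 2.63 for miR-199a-3p and 0.85 to 2.26 for miR-214, with the highest value without rat 4, and the call was lost without rat 5 for both and without rat 6 for miR-214. The lymphoid comparison ran from -0.41 to -0.24 for miR-199a-3p and -0.27 to -0.22 for miR-214, epididymis against testicle from 0.79 to 0.98 (call lost without any 1 of the 3 rats) and anterior against glandular stomach from 1.11 to 1.56 (call lost without rat 6) for miR-214. Perfusion ran from -0.061 to 0.15 in kidney for miR-214, -0.16 to 0.018 in lung, -0.056 to 0.072 in heart atrium and -0.027 to 0.088 in septum for miR-199a-3p, -0.13 to 0.0091 in heart atrium and -0.067 to 0.11 in septum for miR-199a-5p, and -0.0052 to 0.088 over the 5 organs for miR-199a-3p. The F of miR-199a-5p minus miR-214 ran from 1.20 to 5.12, and their correlation from 0.973 to 0.979.

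The numbers of all miRNAs called also moved. Over 21 alternatives the count called higher ran from 25 to 131 for fibrous organs (62 as reported), 27 to 125 for vessels (38), 15 to 70 for ischial nerve (47), 40 to 352 for limb muscle (78), 31 to 83 for epididymis (61), 9 to 57 for white fat (21), 22 to 84 for anterior stomach (47) and 66 to 135 for lymphoid organs (114). The count called lower ran from 78 to 306 for the central nervous system (232), 31 to 121 for mucosa (62) and 62 to 240 for lymphoid organs (236). The lows of 78, 66 and 62 come from the fit of 144 miRNAs, where they were 54.2%, 45.8% and 43.1% of those tested, against 54.6%, 26.8% and 55.5% of 425.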
